A study of Mus musculus with 11 samples.

Results

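A set of 7 genes whose mean was lower with the A384T form of FoxP3 than with wild-type (WT) FoxP3 was followed over all 4 groups of the study. The genes are Gpld1, B3galnt1, Metrnl, Pglyrp1, Ell2, Adamtsl4 and Map6. They had been selected on the A384T and WT array means, and were taken by name, with every probe set that the platform annotation gives exactly 1 gene symbol, which gave 11 probe sets of 7 genes out of 34945 probe sets of 18193 genes. Gpld1, B3galnt1, Pglyrp1 and Adamtsl4 had 1 probe set each, Ell2 and Map6 had a pair and Metrnl had 3. The difference between A384T and WT is therefore described here and not tested.

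All arrays came from naive CD4 T cells (CD25-, CD45RB high) of BALB/cA mouse lymph nodes and spleen, stimulated with anti-CD3e (0.5 ug/ml), recombinant IL-2 (10 ng/ml) and irradiated (20 Gy) syngeneic spleen cells depleted of T cells, and infected 24 h later with MIGR1 retrovirus. The virus carried no insert (mock, 3 arrays), mouse WT FoxP3 (3 arrays), A384T FoxP3 (3 arrays) or R397W FoxP3 (2 arrays), and on day 7 the CD4+ cells bright for GFP were collected by sorting. FoxP3 was thus driven by a retroviral vector in activated cells. Populations were made in duplicate or triplicate, but separate mice or cultures are not named, so p-values reflect only array-to-array spread that could be technical. Each value is a log2 distance from the mock median of its own probe set, so changes between groups can be read but levels cannot, and the labelled cell type could not be checked against its markers.

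FoxP3 is a forkhead transcription factor that binds DNA and works with partners such as NFAT to raise some genes and lower others in regulatory T cells. A384T and R397W are substitutions in its forkhead domain that are known from IPEX, the autoimmune disease caused by loss of FoxP3 function. Most of the genes encode secreted proteins or enzymes of membrane glycolipids. Gpld1 encodes a phospholipase D that cleaves glycosylphosphatidylinositol (GPI) anchors, B3galnt1 a glycosyltransferase that makes globoside, Metrnl the secreted protein meteorin-like, and Pglyrp1 a secreted protein that binds bacterial peptidoglycan. Adamtsl4 encodes a secreted matrix protein that binds fibrillin microfibrils. Ell2 encodes an elongation factor of RNA polymerase II, and Map6 encodes a protein that stabilizes microtubules.

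Promoter windows were examined because FoxP3 acts through DNA. RefSeq sequence of the 250 bases before the start (GRCm38.p6) was matched by symbol for 6 of the 7 genes, all but Map6. The forkhead letters TGTTTAC or TGTTTGC, on either strand, were in none of the 6 windows, and they were in 3.17% and 4.30% of 32851 windows of the same length. The AP-1 letters TGANTCA, which read the same on both strands, were also in none of the 6, against 6.75% of all windows. The NFAT core letters GGAAA, on either strand, were in 3 of the 6 windows, those of Gpld1, Metrnl and Pglyrp1, against 55.6% of all windows. The forkhead and AP-1 letters do not contain the NFAT core, and a match or its absence in these letters does not show whether a factor binds. The Gpld1 window lies inside the span that RefSeq gives the gene. The 2 others with a match are shown 5′ to 3′ on the gene's strand, with the NFAT core letters in capitals, because they are the windows upstream of a whole gene span that held any motif searched. The Pglyrp1 window is chr7:18884440-18884689 (plus strand) and the Metrnl window is chr11:121702177-121702426 (plus strand).
Pglyrp1: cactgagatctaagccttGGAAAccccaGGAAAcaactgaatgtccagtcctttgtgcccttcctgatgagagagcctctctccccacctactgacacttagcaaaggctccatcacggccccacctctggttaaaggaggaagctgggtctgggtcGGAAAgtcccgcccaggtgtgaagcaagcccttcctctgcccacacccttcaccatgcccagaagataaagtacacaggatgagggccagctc
Metrnl: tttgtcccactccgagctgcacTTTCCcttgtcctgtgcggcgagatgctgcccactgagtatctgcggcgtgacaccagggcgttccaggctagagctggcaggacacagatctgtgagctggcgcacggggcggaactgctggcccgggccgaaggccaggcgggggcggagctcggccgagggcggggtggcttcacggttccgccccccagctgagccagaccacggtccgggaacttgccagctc
The Pglyrp1 window held 3 matches, the nearest starting 93 bases before the start, and the Metrnl window held 1, starting 228 bases before it.

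The 7 genes fell into different patterns over the groups. At the most variable probe set of each gene, the A384T arrays were below the WT arrays without overlap for all 7, and 3.66% of all probe sets had A384T below WT in this way. Against mock, the WT arrays were higher without overlap for 5 genes (Gpld1, B3galnt1, Pglyrp1, Ell2 and Adamtsl4), lower for Map6, and overlapping for Metrnl. Higher WT arrays without overlap were found at 8.17% of all probe sets and lower ones at 8.07%. The A384T arrays were above mock without overlap for B3galnt1, Ell2 and Adamtsl4, below it for Metrnl, Pglyrp1 and Map6, and overlapping for Gpld1, against 7.99% higher and 7.33% lower over all probe sets. These comparisons share arrays, and both use the arrays that chose the genes.

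Gpld1 was high with WT FoxP3 alone. Its values (1418050_at) were 3.26, 3.39 and 2.75 on the WT arrays. They were -0.19, -0.085 and -0.37 with A384T, -0.17, 0.044 and 0 with mock, and -0.26 and -0.086 with R397W. The 8 arrays without WT FoxP3 thus lay together around 0, and the 3 WT arrays stood apart from every other array. The WT mean was 3.17 ± 0.16 (difference ± SE) above mock, which is 9.03-fold, and the A384T mean was 10.2-fold below WT (-3.35 ± 0.16). A384T was at -0.17 ± 0.16 from mock and at -0.21 ± 0.14 (SD, n = 3) on the scale of the mock median. Of all 34945 probe sets, Gpld1 had the lowest A384T minus WT difference.

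B3galnt1 and Ell2 took an intermediate place with A384T. For B3galnt1 (1418736_at) the values were 3.03, 2.43 and 2.60 with WT, 0.19, 1.33 and 0.43 with A384T, -0.024, 0 and 0.079 with mock, and -0.035 and 0.24 with R397W. All A384T arrays were below all WT arrays and above all mock arrays, but the lowest A384T array lay below the higher R397W array. The A384T arrays varied more (SD 0.60) than the WT arrays (SD 0.31), with the second A384T array highest. The A384T mean was 4.10-fold below WT (-2.04 ± 0.26).

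For Ell2 (1450744_at) the WT values were 2.35, 2.90 and 2.27 and the A384T values 0.82, 1.22 and 0.67. Mock was at 0.0027, -0.19 and 0, and R397W at -0.16 and -0.068. WT, A384T and the remaining 5 arrays formed 3 levels with no overlap between them, while R397W and mock overlapped. The A384T mean was 3.04-fold below WT (-1.60 ± 0.18) and 0.97 ± 0.18 above mock. The other Ell2 probe set (1458569_at) lay between -0.44 and 0.021 on all 11 arrays, and its A384T minus WT difference was -0.12 ± 0.12, so the Ell2 pattern rests on 1 of its 2 probe sets.

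Adamtsl4 (1451932_a_at) was the gene at which the R397W arrays also lay above the mock arrays without overlap, as at 6.43% of all probe sets. Its values were 2.64, 2.35 and 1.82 with WT, 0.99, 0.82 and 0.19 with A384T, 0.52 and 0.61 with R397W, and 0.095, 0 and -0.15 with mock. The WT arrays were the highest, the A384T and R397W arrays overlapped, and all of these were above the mock arrays. The marker list of fibroblasts and endothelium, cells that make matrix proteins, was at 0.19 to 0.39 with WT, 0.12 to 0.28 with A384T, -0.086 to 0.045 with mock and -0.048 to 0.096 with R397W (mean over 13 probe sets of 7 of 7 genes, per array). Of these genes 1 was called against mock in the mean of WT and A384T, Col1a2 (1.92 ± 0.44, limma adjusted p = 0.0361), and the part of such cells in the Adamtsl4 values was not tested. A384T was 3.03-fold below WT (-1.60 ± 0.23) and 0.69 ± 0.23 above mock.

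Pglyrp1 (1449184_at) was on opposite sides of mock in the WT and A384T groups. WT arrays were at 0.99, 1.39 and 1.20, A384T arrays at -0.76, -0.35 and -0.35, mock arrays at -0.31, 0.25 and 0, and R397W arrays at -0.51 and -0.015. A384T overlapped R397W, and its highest array was only just below the lowest mock array. The WT mean was 1.21 ± 0.19 above mock and the A384T mean 3.21-fold below WT (-1.68 ± 0.19). In every group the array numbered 1 had the lowest Pglyrp1 value. Pglyrp1 is a known granule gene of neutrophils, and 10 of 12 granulocyte markers were measured. Their mean value lay between -0.15 and -0.034 on the WT arrays, between -0.11 and -0.032 on the A384T arrays, and between -0.064 and 0.067 on the mock and R397W arrays. The part of such cells in the Pglyrp1 values was not tested.

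Metrnl was low with A384T alone at 1 of its 3 probe sets, the most variable one. At that probe set (1424356_a_at) the A384T arrays were at -1.61, -1.68 and -1.16. WT was at 0.16, 0.82 and 0.21, mock at 0, 0.43 and -0.25, and R397W at 0.014 and 0.13. The WT arrays overlapped mock and lay just above R397W, and the 3 A384T arrays were below all others. A384T was 3.68-fold below WT (-1.88 ± 0.22) and -1.54 ± 0.22 from mock. The second probe set (1444097_at) had A384T at -1.22, -1.01 and -0.66 and WT at -0.36, 1.09 and 0.94. Its mock arrays were at -0.95, 0.041 and 0 and its R397W arrays at -0.79 and -0.26. A384T was below WT there but overlapped mock and R397W, the residual SD was 0.56, and the array numbered 1 was lowest in every group. The third (1441903_x_at) lay between -0.14 and 0.31 on all arrays with no order of the groups, and its A384T minus WT difference was -0.031 ± 0.13. Averaging the 3 probe sets gave a difference of -1.14.

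Map6 was lower than mock with WT and lower still with A384T. At its most variable probe set (1422550_a_at) the values were -0.70, -1.39 and -1.51 with WT and -2.63, -2.60 and -2.93 with A384T. Mock was at 0, 0.21 and -0.30, and R397W at -0.18 and -0.32. The 3 levels did not overlap, and R397W overlapped mock. A384T was 2.88-fold below WT (-1.52 ± 0.21) and 6.47-fold below mock (-2.69 ± 0.21). With WT below mock, the choice of genes for A384T below WT itself places A384T farther from mock than WT. The other probe set (1457316_at) kept this order of WT (-1.56, -1.48 and -1.51) and A384T (-1.95, -2.04 and -1.87) with a smaller difference (-0.44 ± 0.36), but its mock arrays spread from -1.41 to 0.36.

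**Figure D1:**
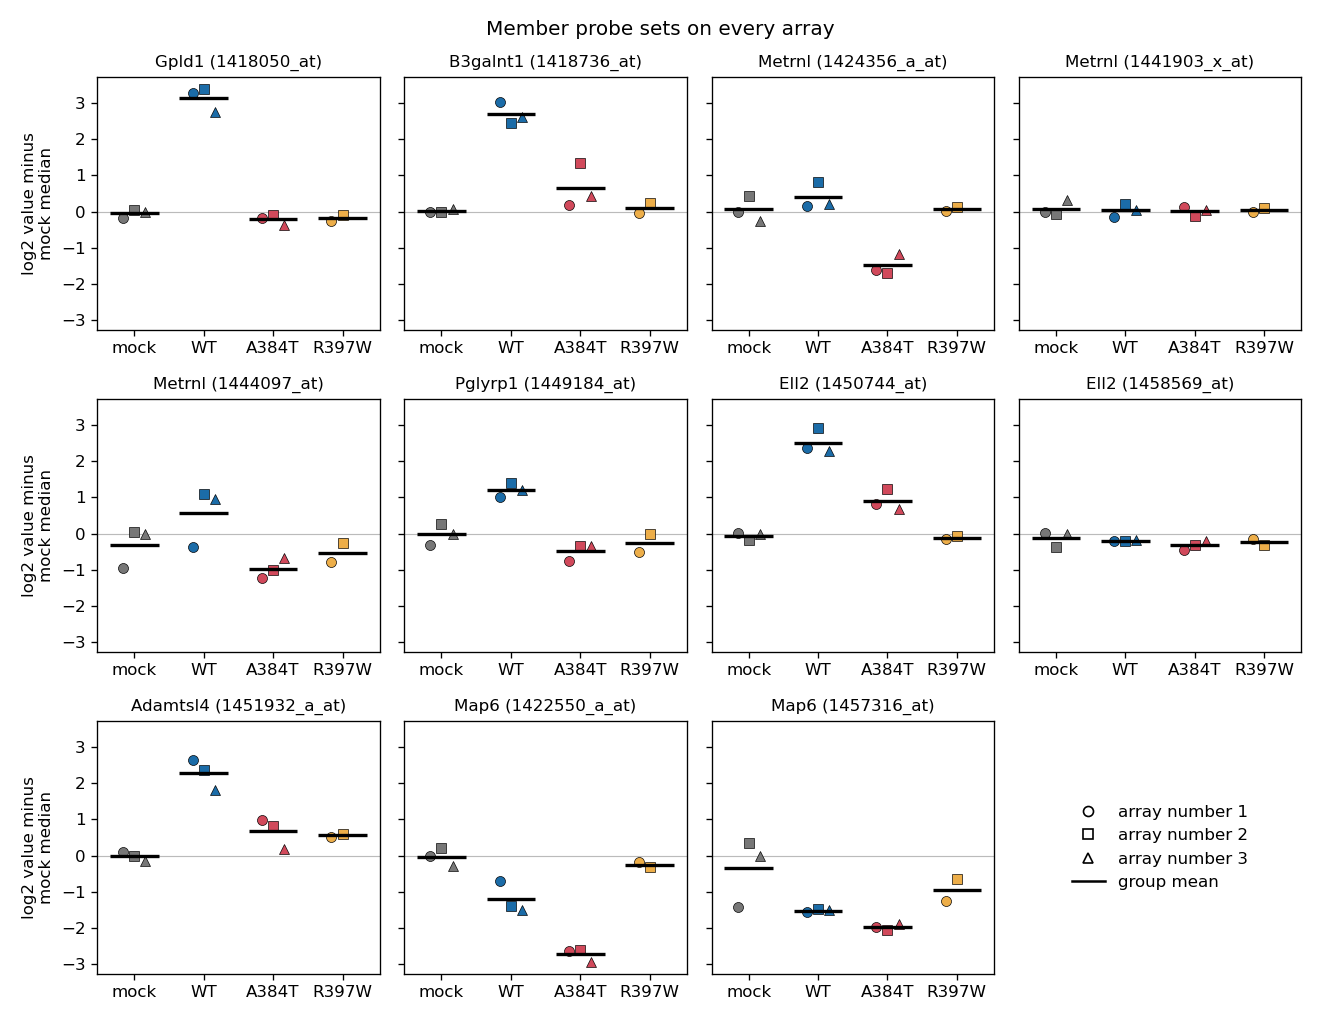
Each panel plots 1 probe set, with the log2 value minus the mock median on the vertical axis, a point per array (shape gives the array number) and a line at the group mean. Gpld1 is at 2.75 to 3.39 on the 3 WT arrays and near 0 on the other 8, Ell2 (1450744_at) shows 3 levels, and Metrnl (1424356_a_at) is low on the A384T arrays alone.

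The genes were chosen near the lower end of the A384T minus WT differences. Of 34945 probe sets, 60 were below -1 and 3 below -2. The 7 most variable probe sets of the members held ranks 1, 3, 4, 6, 7, 8 and 12 from the lowest. Nt5e at rank 2 (-2.58), Cyp11a1 at rank 5 (-1.77), and Sgk1, Slamf9 and Gm17767 at ranks 9 to 11 (-1.55, -1.54 and -1.54) are not among them. The last member inside was Map6 at -1.52, and after the second Metrnl probe set at -1.52 the next gene outside was Cyp4f18 at -1.42. The rule itself asks only for a mean below that of WT, which 17170 probe sets met.

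**Figure D2:**
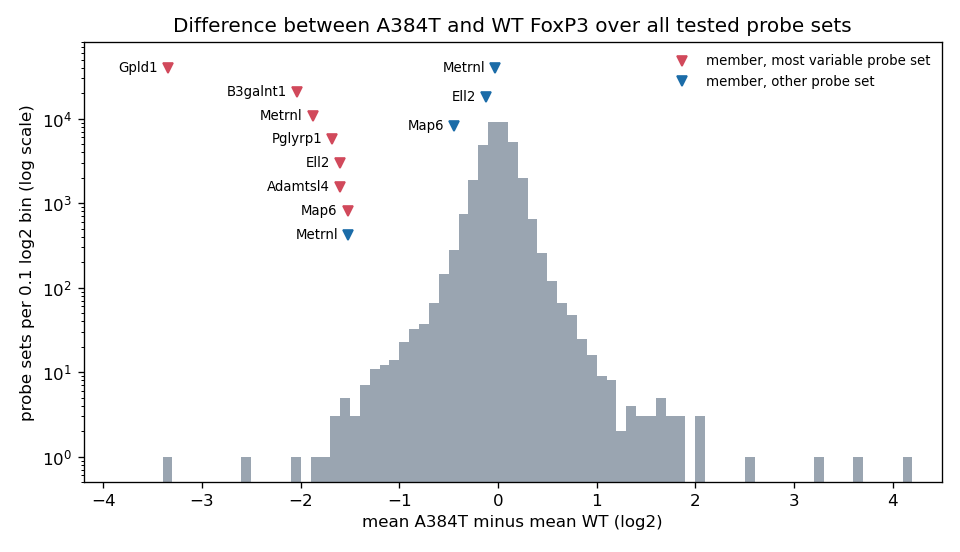
The histogram counts all 34945 tested probe sets by their mean A384T minus mean WT difference (log2, horizontal axis, bins of 0.1, counts on a log scale), and triangles mark the members, whose height in the plot carries no value. The most variable probe sets of the 7 genes lie between -3.35 and -1.52, whereas 1 probe set each of Metrnl, Ell2 and Map6 lies at -0.031, -0.12 and -0.44.

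Tests were made on differences other than the one that the choice of genes used. R397W against mock involves neither the WT nor the A384T arrays, and the mean of the WT and A384T groups is orthogonal to the difference between them when both have 3 arrays. Orthogonality separates array noise only. A gene chosen because WT or A384T alone moved away from mock also has a mean of both that differs from mock. The counts of members called in this mean are therefore not independent of the choice. The same holds for this mean set against R397W, where R397W lies near mock. The spread in limma, the linear model used, was estimated from all 11 arrays and so includes the arrays that chose the genes. A probe set was called at a Benjamini-Hochberg adjusted p under 0.05 over 34945 probe sets.

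With R397W FoxP3, none of the 11 probe sets differed from mock by limma at this threshold. The same held for every probe set on the array, so that 0% were called, and 612 (1.75%) had an unadjusted p under 0.05. Among the members that was 1 probe set, that of Adamtsl4, at 0.58 ± 0.26 (95% confidence interval 0.0052 to 1.16, limma adjusted p = 1), with both R397W arrays above the 3 mock arrays. R397W arrays above mock without overlap were found at 6.43% of all probe sets. The intervals for the other genes reached from -0.53 to 0.27 for Gpld1, from -0.57 to 0.73 for B3galnt1 and from -0.50 to 0.40 for Ell2 (1450744_at). For Pglyrp1 the interval was -0.71 to 0.23, for Metrnl (1424356_a_at) -0.54 to 0.57, and for Map6 (1422550_a_at) -0.75 to 0.30. With 2 R397W arrays, changes within these intervals remain possible, and the intervals are not limits of detection after adjustment.

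The mean of WT and A384T FoxP3 differed from mock at 6 of the 11 probe sets, 4 higher and 2 lower. Over all probe sets 4.24% were called, 2.37% higher and 1.87% lower. The median difference was 0.0998 over the 11 probe sets and -0.0071 over all probe sets. Ell2 rose by 1.77 ± 0.16 (1450744_at, limma adjusted p = 0.000172), B3galnt1 by 1.65 ± 0.23 (adjusted p = 0.00237), Gpld1 by 1.50 ± 0.14 (adjusted p = 0.000234) and Adamtsl4 by 1.49 ± 0.20 (adjusted p = 0.00217). For Ell2 (1450744_at), B3galnt1 and Adamtsl4 all 6 WT and A384T arrays were above the 3 mock arrays. The share of all probe sets with both groups on the same side of mock was not counted. For Gpld1 the mean came from the WT arrays, with A384T at mock values, and says nothing of a change with A384T. Map6 fell by 1.93 ± 0.18 (1422550_a_at, limma adjusted p = 0.000251), with all 6 WT and A384T arrays below mock.

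The other Map6 probe set fell by 1.38 ± 0.31 (1457316_at, limma adjusted p = 0.0352). That call was lost without mock 2 (-1.03, adjusted p = 0.156) or mock 3 (-1.21, 0.16), after quantile normalization (-1.16, 0.132), without WT 1, 2 or 3 (0.0708, 0.0726 and 0.0683) and without A384T 1, 2 or 3 (0.0666, 0.077 and 0.0601). The difference stayed between -1.40 and -1.36 without a WT or A384T array. Without mock 1, the mock array at -1.41, it was -1.91 (limma adjusted p = 0.000413). The quantile step was applied to values already centred on mock, and it gives every array the same distribution of distances from mock. At Pglyrp1 and Metrnl the groups stood on opposite sides of mock or only A384T stood away from it, and the means were 0.37 ± 0.17 (adjusted p = 0.334) and -0.60 ± 0.19 (1424356_a_at, adjusted p = 0.141). The remaining Ell2 and Metrnl probe sets were not called.

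Against R397W, the mean of WT and A384T differed at 4 of the 11 probe sets, 3 higher and 1 lower. Over all probe sets 2.75% were called (1.52% higher and 1.23% lower). As against mock, the count of members called is not independent of the choice of genes. Ell2 was higher by 1.82 ± 0.18 (1450744_at) and Gpld1 by 1.63 ± 0.16, both at a limma adjusted p = 0.000611. B3galnt1 was higher by 1.57 ± 0.26 (adjusted p = 0.0106), a call lost without R397W 1 (1.43, adjusted p = 0.142) or R397W 2 (1.70, adjusted p = 0.0736). Each of these fits has a lone R397W array, assumed to vary like the other groups. Map6 was lower, with a difference of -1.71 ± 0.21 (1422550_a_at, adjusted p = 0.00206). After quantile normalization of the deposited values that Map6 difference was -1.32 (limma adjusted p = 0.0588) and was not called. As above, that step was applied to values already centred on mock. Adamtsl4 was at 0.91 ± 0.23 (limma adjusted p = 0.0795) and was not called. It passed without WT 3 (0.033) or A384T 3 (0.0265), whereas quantile normalization brought it to 0.185 (adjusted p = 0.907) and Adamtsl4 in R397W over mock to 0.90 (adjusted p = 1). Without all arrays numbered 1, which leaves a single R397W array, 1 of these 4 calls remained, that of Map6.

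**Figure D3:**
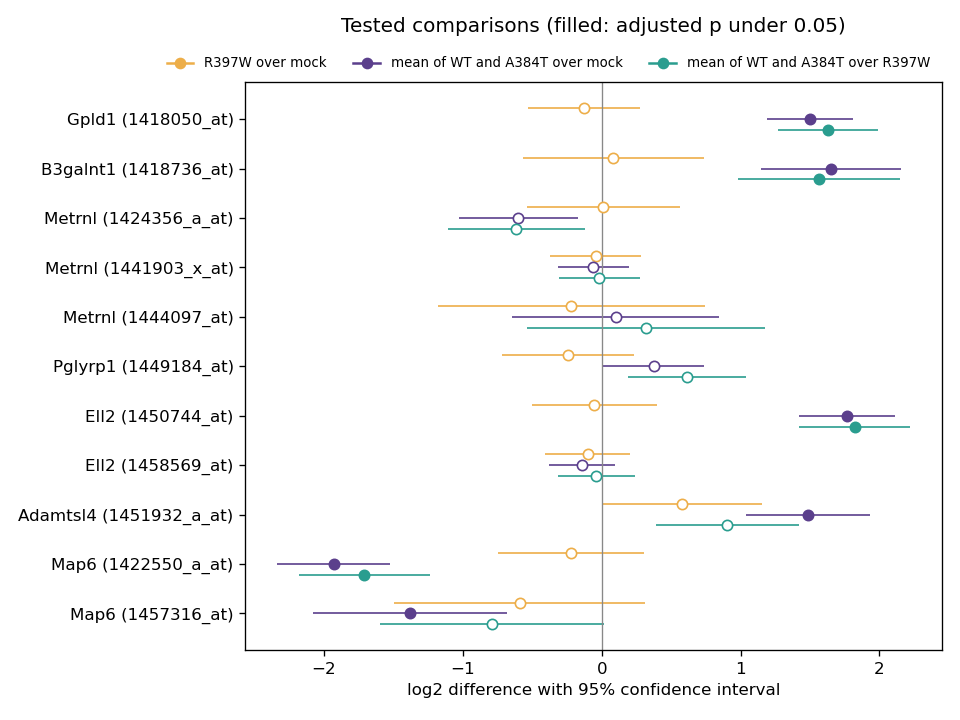
Points are log2 differences (horizontal axis) of the 11 probe sets in the 3 tested comparisons, bars are 95% confidence intervals from limma, and filled points passed an adjusted p under 0.05. Every R397W over mock point is open, while Gpld1, B3galnt1, Ell2 (1450744_at) and Map6 (1422550_a_at) are filled in both comparisons of the mean of WT and A384T.

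Profiles most like each gene were found by the root mean square difference over the 11 arrays. The nearest to B3galnt1 was Ell2 (0.36), followed by Adamtsl4 (0.45), and the nearest to Gpld1 were B3galnt1 (0.60) and Ell2 (0.69), all of them members. Ell2 was nearest to Gm17767 (0.30) and Adamtsl4 to Nt5e (0.33), the ecto-enzyme CD73, at another probe set than the one ranked above. That Nt5e probe set had means of 1.88 with WT, 0.65 with A384T and 0.26 with R397W. Cym was the next nearest to Adamtsl4 (0.34). Metrnl lay nearest to Sgk1 (0.40), a kinase, whose means were 0.098 with WT, -1.45 with A384T and -0.24 with R397W, and next to Fgfr1 (0.46). Pglyrp1 lay nearest to the amino acid transporter gene Slc7a7 (0.36) and then to Rragd (0.37), and Map6 to the Fc receptor gene Fcgr3 (0.46), at -1.77 with WT and -2.55 with A384T, and then to Bbs9 (0.47). These distances are descriptions over arrays that include those used to choose the genes.

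Genes of the members' pathways were counted in the mean of WT and A384T over mock. In the super elongation complex list, which holds Ell2, 1 of 13 measured genes rose (Ell2) and 1 fell. The gene that fell was Hexim1, an inhibitor of the elongation kinase P-TEFb (-0.95 ± 0.14, limma adjusted p = 0.00372, and -0.45 at a second probe set). The list median was 0.016, beside -0.0071 over all probe sets. At an unadjusted p under 0.05 in limma, 5 of its 31 probe sets were higher and 4 lower, where 14.4% of all probe sets had such a p. Ell, the close relative of Ell2, was at 0.38 and 0.0025 at its probe sets and was not called. Against R397W, Hexim1 was again lower at the former of these probe sets (-1.19 ± 0.16) but was not called at the second. Cdk9, the kinase of P-TEFb, was also lower (-0.76 ± 0.16 at 1 of 2 probe sets, limma adjusted p = 0.0319).

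Of 14 glycosphingolipid glycosyltransferase genes, 2 rose and 2 fell, with a median of -0.12. At an unadjusted p under 0.05 in limma, 4 of their 29 probe sets were higher and 7 lower. Next to B3galnt1 it was the sialyltransferase gene St3gal2 that rose, by 1.75 ± 0.19 and 1.34 ± 0.14 at 2 of its 3 probe sets (limma adjusted p = 0.000509 and 0.000532). The genes that fell were Ugcg, which encodes the enzyme of glucosylceramide synthesis (-0.99 ± 0.22 at 1 of 4 probe sets, the others not called), and St8sia1, which encodes GD3 synthase (-0.60 ± 0.14 at 1 of 3). In the list of GPI anchor synthesis and release, 2 of 23 genes rose and 0 fell, with a median of 0.043. These were Gpld1 and Pigm, a mannosyltransferase of anchor synthesis (0.60 ± 0.12 at 1 of 2 probe sets, limma adjusted p = 0.0225). Of 56 probe sets 10 were higher and 1 lower at an unadjusted p under 0.05. Over all probe sets 14.4% had such a p in this comparison, in either direction.

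None of 7 measured peptidoglycan recognition genes and none of the meteorin pair was called by limma. At an unadjusted p under 0.05 there were 2 higher of 10 probe sets in the former and 3 lower of 5 in the latter, where 14.4% of all probe sets had such a p. Pglyrp2, a relative of Pglyrp1, was at 0.72 ± 0.18 (limma adjusted p = 0.0609), and Metrn, the relative of Metrnl, was at -0.43 and -0.25. Adamtsl4 was the 1 gene of 15 that rose among ADAMTS-like and fibrillin genes, and none fell (median -0.016), with 2 of 28 probe sets higher and 3 lower at an unadjusted p under 0.05. Of 21 microtubule-associated genes, Map7 rose at 3 probe sets (1.64 ± 0.19, 1.34 ± 0.15 and 0.59 ± 0.12) and Map6 fell, with a median of -0.0044. At an unadjusted p under 0.05, 4 of their 64 probe sets were higher and 6 lower. In R397W over mock limma called no gene of these 7 lists, and at an unadjusted p under 0.05 each list had 0 to 3 probe sets.

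**Figure D4:**
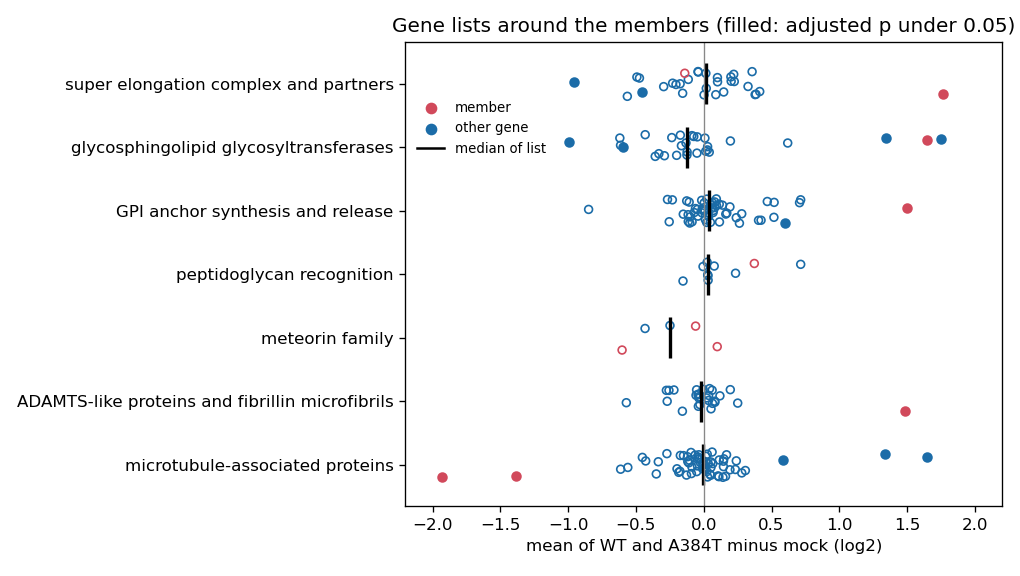
Each point is 1 probe set of a gene list, placed by the mean of WT and A384T minus mock (log2, horizontal axis, the vertical scatter within a list carries no value), filled where the adjusted p was under 0.05, with members in red and the list median as a bar. Most lists centre near 0, with Ell2, B3galnt1, Gpld1 and Adamtsl4 at 1.49 to 1.77 on the right and Map6 at -1.93 and -1.38 on the left.

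The median SE was 0.142 between groups of 3 arrays and 0.159 for R397W over mock, and array medians lay between -0.016 and 0.0022. The single Foxp3 probe set was at -0.066 to 0.11 with WT, 0.096 to 0.33 with A384T, -0.39 to -0.19 with R397W and -0.34 to 0.26 with mock, and nothing used here says if that probe set reads the retroviral insert. It therefore does not check the labels or the amount of FoxP3 in each group, and in bulk RNA fewer cells that express a gene and less RNA per cell cannot be told apart. Mean values of plasma cell markers lay between -0.24 and 0.081 on all arrays. Those of macrophages and dendritic cells were at -0.12 to -0.055 with A384T and between -0.077 and 0.065 on the other arrays. B cell markers were at -0.14 to -0.11 with WT and -0.048 to 0.062 with mock. CD8 and NK cell markers were at 0.056 to 0.13 with A384T, -0.0012 to 0.040 with WT and -0.027 to 0.057 with mock. In the mean of WT and A384T over mock, the macrophage gene Adgre1 was lower (-0.83 ± 0.17, limma adjusted p = 0.0186). Of 10 T cell marker genes 2 were called higher and 2 lower. The part of such cells in the member values was not tested.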

How the data were processed

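The authors deposited 1 table of log2 values. The submitters' processing notes name RMA (background correction, quantile normalization, probe summary) without a version. Each of the 45101 probe sets had a mock median of exactly 0, so values were centred on mock. No source used here records that centring or the log base, and base 2 was assumed. Centring removes levels, so a filter on dim probes could not be made.

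Symbols came from the platform annotation: 34945 probe sets had 1 symbol, 932 several, 9160 none, and 64 were controls. Using limma 3.58.1 under R 4.3.3, a mean per group was estimated for the 34945 over all 11 arrays (7 residual degrees of freedom), which was checked on simulated data. Benjamini-Hochberg adjustment ran over all 34945, and confidence intervals are at 95%. All 7 members were named, their most variable probe set over the 11 arrays came first, the 2 most alike genes of each and up to 3 called genes per list were named. Members, lists and tests were chosen with earlier results of these data known. Alternatives were a block for array number, other probe set rules, priors and scalings, and leaving out arrays. Promoters came from RefSeq (GRCm38.p6). Figures used Python 3.11.15, pandas 2.3.3 and matplotlib 3.10.9.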

Additional observations from a re-analysis of the deposited data

How the results depend on the processing

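Over all probe sets, the mean of WT and A384T over mock gave 1482 calls, and 892 to 1425 when each array was left out in turn, with 938, 892 and 915 without mock 1, 2 or 3. It gave 3901 with the array number as a replicate block, 857 genes with 1 probe set per gene, 672 after quantile normalization of the deposited values and 703 without the arrays numbered 1. The mean of WT and A384T over R397W gave 960 calls, and 282 to 872 when each array was left out in turn, with 282 and 325 without R397W 1 or 2. The same settings gave 2824, 577, 369 and 223. Without the arrays numbered 1, 1 member probe set was called in the latter comparison in place of 4. R397W over mock gave 0 calls in every setting run. Deviations of arrays with the same number correlated above 0 in all 15 pairs (0.086 to 0.72 across probe sets, median 0.50), 14 of them over 0.1. The 30 pairs with different numbers were at -0.70 to 0.33 (median -0.35). Deviations from a group mean sum to 0 within the group, so these pairs are not independent. Of the 11 arrays, all 11 correlated best with an array of their own number. The labels do not say what a number marks, and 1 pair missed the limit of 0.1 set for every pair, so this is a hint of pairing from the data and the block was kept as an alternative. With the replicate block, 8 member probe sets were called against mock in place of 6, adding Metrnl (1424356_a_at, limma adjusted p = 0.0462) and Pglyrp1 (0.0132), and 6 against R397W in place of 4, adding Pglyrp1 (0.00394) and Adamtsl4 (0.000672). Quantile normalization left 5 member probe sets called against mock and 3 against R397W, and brought the A384T minus WT difference of Gpld1 to -2.34, B3galnt1 to -1.36 and Ell2 (1450744_at) to -1.03. The deposited values had been quantile normalized in RMA and are centred on mock. Repeating the step gives every array the same distribution of distances from mock, which itself changes differences between groups. Of 845 values of single probe sets under alternatives, 812 stayed on their side of the threshold or, where untested, moved by less than 1 SD, 15 lost a call, 8 gained one, and 10 moved by more. The sign changed in 23 of the 845, in 0 of which the value was called by limma in either fit, and all of these had a difference as reported of at most 0.24 in size.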
